A study of Mus musculus with 8 samples.

Results

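Gm models are mouse genes that still carry the provisional symbol Gm followed by a number, a placeholder that the mouse nomenclature gives to a gene predicted from the genome before it has a name. They were taken here as every row of the deposited gene table whose symbol was Gm and digits only, which gave 134 of 11354 genes (1.18% of the table). The libraries came from CD4 T cells on a Black6 background that had been transferred into RAG-/- hosts, which lack T and B cells of their own. Of the 8 libraries, 4 were labelled as made after transfer of wild-type cells (WT 1, 2, 4 and 5, by host) and 4 after transfer of Nlrp6-/- cells (KO 1, 2, 4 and 5). The labels name the host spleen as the source in one place and the colonic lamina propria in another, and give no age, no interval after transfer and no further treatment. The comparison asks which of these unnamed genes differed between the 2 kinds of library.

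The placeholder covers several kinds of gene. A processed pseudogene is a copy of a messenger RNA that was written back into the genome, often nearly identical to its parent, so that short reads from parent and copy are hard to separate. A long non-coding RNA (lncRNA) is a transcript without a known protein, and many lie against or inside a named gene. Other Gm models are predicted proteins in recently duplicated families, or readthrough models that join 2 neighbouring genes in 1 transcript.

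The gene names in the deposited table called 94 of the 134 predicted genes and 38 pseudogenes, and described the remaining 2 as readthrough transcripts. None was named there as a non-coding RNA. RefSeq (GRCm38.p6, the build called mm10) held 133 of them and typed 55 as protein-coding, 39 as lncRNA and 39 as pseudogenes, and Gm17066 was not matched. Several have since been given names, among them Gm15698 (Elobl), Gm21975 (Evi2), Gm14005 (Morrbid), Gm1821 (Ubb-ps) and Gm14085 (Slc28a2b). Gm15698 was called a pseudogene in the table and is protein-coding in RefSeq.

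How far a read could be assigned to 1 gene was read from the sequences, and 3 examples show the range. Gm15698 resembles Elob, which encodes elongin B, a subunit of transcription elongation and ubiquitin ligase complexes. Over the 295 aligned bases of the 354-base Elob coding sequence the identity was 80.0%, with 59 mismatches. The first 81 aligned bases, the length of a read, are shown with the 15 mismatched bases in capitals.
Gm15698: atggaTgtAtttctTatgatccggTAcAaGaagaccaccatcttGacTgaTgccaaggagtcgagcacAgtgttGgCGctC
Elob: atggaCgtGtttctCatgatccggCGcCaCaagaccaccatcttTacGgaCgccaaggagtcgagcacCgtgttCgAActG
No 81-base window of that alignment had fewer than 11 mismatches. At the other end, Gm12070 is a processed copy of Gapdh, a glycolytic enzyme, and differed from the Gapdh coding sequence at 1 of 999 aligned bases. Its first 81 bases are the same in both.
Gm12070 and Gapdh: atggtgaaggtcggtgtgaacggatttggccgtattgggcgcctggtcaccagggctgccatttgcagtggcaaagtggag
Gm15772, a copy of the ribosomal protein gene Rpl26, differed from its parent at 2 of 435 bases and begins with the same 81 bases as Rpl26.
Gm15772 and Rpl26: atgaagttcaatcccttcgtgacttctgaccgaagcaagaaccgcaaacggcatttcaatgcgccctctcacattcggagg
A read from either of the last 2 windows fits parent and copy equally well. These sequences are from the GENCODE vM21 transcripts.

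Over the 121 members matched to a GENCODE transcript, a median of 21.4% of their 81-base windows was also present in a transcript of another gene. The median was 39.9% for the 37 pseudogenes, 44.8% for the 50 protein-coding models and 0.434% for the 33 lncRNAs. For 26 members no window was shared, and for 45 at least 50% of the windows were.

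The gene targeted in the study was looked at first. Nlrp6 encodes an inflammasome sensor best known from the gut epithelium. It had 5, 3, 3 and 8 counts in the libraries labelled wild type, and 487, 329, 477 and 648 in those labelled knock-out. These values go against the labels, so the groups are named here only as the libraries labelled wild type or knock-out, and every direction rests on those labels. Library totals lay between 35198192 and 40310721 counts. T cell markers were present throughout (10 of 10 measured, summed CPM 6583 to 7655 and 6204 to 6744), and none of 6 B and plasma cell markers was in the table. Myeloid markers moved with the labels: 19 of 20 were measured and 18 were higher, with summed CPM of 49.0 to 85.7 in the libraries labelled wild type and 282 to 874 in those labelled knock-out. CPM here is edgeR's scaled count on the TMM-adjusted library size. Of the dendritic and MHC class II markers, 6 of 8 measured were higher, with summed CPM of 65.0 to 113 and 470 to 1356. Of the neutrophil markers, 5 of 5 measured were higher, with summed CPM of 8.08 to 13.8 and 32.3 to 70.5. In bulk libraries more cells of a type and more RNA per cell cannot be told apart.

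Across the Gm models, 10 of 134 passed edgeR's quasi-likelihood test at a Benjamini-Hochberg adjusted p below 0.05, the threshold used throughout. The libraries labelled knock-out were the higher group for 5 of them and the lower group for the other 5. That is 7.46% of the members, against 10% of all 11354 genes (6.20% higher and 3.84% lower). CPM did not overlap between the groups for 13 members (9.70%), 7 higher and 6 lower, against 16.0% of all genes (8.60% higher, 7.37% lower). Fewer libraries leave more room between groups: 12 were higher and 13 lower without WT 5, 11 higher without KO 1, 13 higher without KO 5, 11 lower without WT 2 and 10 lower without KO 4. The median log2 fold change was -0.0042 over the members and -0.0026 over the whole table. The other 124 members lay between -0.93 (Gm14718) and 0.56 (Gm21948, now Il4i1b) on the log2 scale.

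Most Gm models were weakly expressed. The median member had 5.55 CPM over the 8 libraries, against 32.3 CPM for all genes, and 65 of the 134 were under 5 CPM. Below 5 CPM, 10.8% of members and 18.5% of all genes passed the test. At 5 CPM or more, 4.35% of members and 8.45% of all genes did. The table holds only genes that reached about 1 CPM in 4 libraries, and 5 members met that through 1 group only: Gm10406 and Gm3383 through the libraries labelled wild type, and Gm15698, Gm19705 and Gm4951 through those labelled knock-out. Such genes enter the table because they are high in that group, so their calls and their separation between the groups are partly set by that entry. Among the other 129 members, 2 were called higher and 3 lower.

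**Figure D1:**
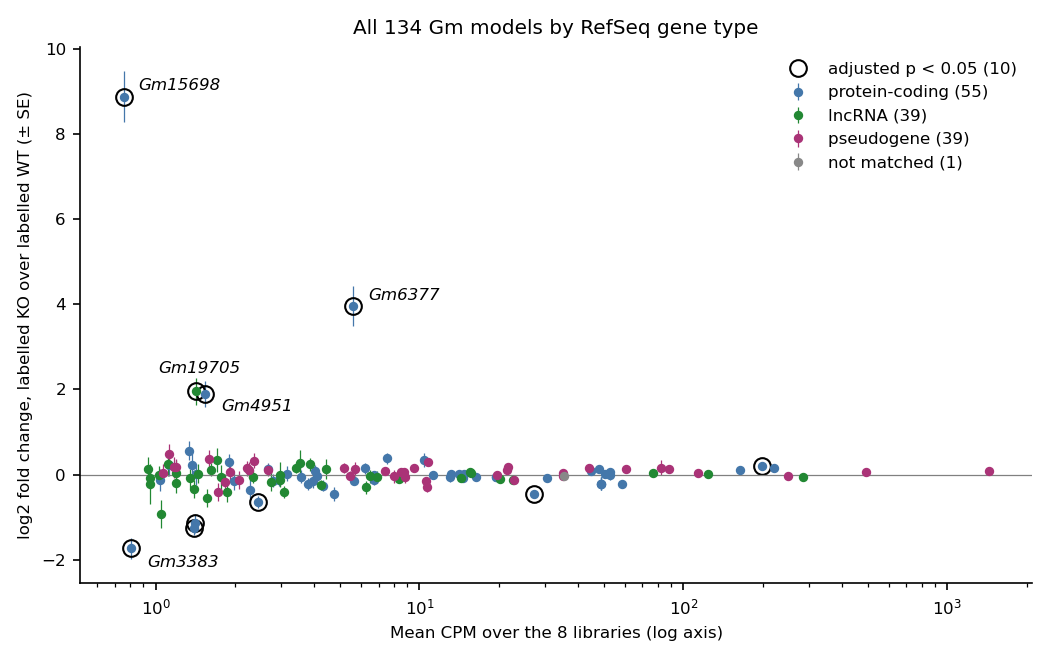
Each point is 1 of the 134 Gm models, with its mean CPM over the 8 libraries on a log axis and its log2 fold change with the standard error, coloured by RefSeq type, and circles mark the 10 that passed the test. Most points lie near 0 at every abundance, and Gm15698 at 8.88 and Gm6377 at 3.96 stand above the others. The value of Gm15698 is a fitted one for a gene with no count in the libraries labelled wild type.

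By RefSeq type, 9 of 55 protein-coding models (16.4%) passed the test, 1 of 39 lncRNAs (2.56%) and 0 of 39 pseudogenes. The share over all genes was 10%. By the gene names in the deposited table, 9 of 94 predicted genes (9.57%) and 1 of 38 pseudogenes (2.63%), Gm15698, passed. Of the called protein-coding models, Gm10406, Gm3383, Gm15698 and Gm4951 entered the table through 1 group only, as did the called lncRNA, Gm19705. The shares by type are therefore partly set by that entry. The types also differed in level, with 45.5% of the protein-coding models, 69.2% of the lncRNAs and 33.3% of the pseudogenes under 5 CPM. Without adjustment, edgeR gave 5 pseudogenes a p under 0.05. DESeq2 called 2 of the 39 pseudogenes, Gm13498 and Gm15421, and limma-voom called 1, Gm15421. For all 134 members both called 13 (9.70%), against 13.9% of all genes with DESeq2 and 12.2% with limma-voom. The 10 called by edgeR were among them with each tool, and Gm4737 was added by both. Of the pseudogenes, 27 had a positive and 12 a negative fold change, with a median of 0.08, and of the lncRNAs 15 and 24, with a median of -0.06. Other placeholder symbols gave similar or higher shares of calls: 27 of 329 RIKEN cDNA models (8.21%) and 10 of 54 models named by a sequence accession (18.5%). These shares were not compared by a test.

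Gm15698 (Elobl), on chromosome 11 (88964658 to 88966931, minus strand), had no count in any library labelled wild type. In the libraries labelled knock-out it had 57, 66, 38 and 71 counts, or 1.47, 1.68, 1.11 and 1.79 CPM for hosts 1, 2, 4 and 5. Against a floor of 3 counts over the group labelled wild type, the level was at least 79.6-fold higher (adjusted p = 0.000415, edgeR quasi-likelihood test). Gm15698 entered the table through the libraries labelled knock-out only, so this difference is partly set by that entry. Only 4.19% of its windows were also in another gene, and 2210409E12Rik held all of those. In KO 1, KO 2 and KO 5 its CPM rose in the order of the summed myeloid markers (282, 496 and 653 CPM). It was lowest in KO 4, where those markers were highest (874 CPM). The part of these markers in the result was not tested. With no count in the libraries labelled wild type, its fitted log2 fold change is not a measured size. It was 6.96 with limma-voom, 8.35 with DESeq2 and 8.88 with edgeR, and the floor above gives at least 6.31. With the myeloid marker level as a covariate in edgeR it was 9.25, with an adjusted p of 0.241 (quasi-likelihood test). That fit called 4 of 11354 genes in all. The marker level (mean log2 CPM) was 0.388 to 1.22 in the libraries labelled wild type and 3.09 to 4.67 in those labelled knock-out. It split the labels completely, so no fit with it here can separate it from the label.

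Genes around Gm15698 changed in both directions. Of 8 measured genes within 500 kb, 2 were higher and 3 lower, against 6.20% higher and 3.84% lower over all genes. C030037D09Rik rose by 1.88 ± 0.16 (log2, SE) and Scpep1, a serine carboxypeptidase gene, by 1.19 ± 0.10. 0610039H22Rik fell by 2.42 on the log2 scale, Msi2, which encodes an RNA-binding protein, fell by 0.52 and Dgke, a diacylglycerol kinase gene, fell by 0.38. The nearest gene, Coil, began 7004 bases away and had a log2 fold change of 0.25 ± 0.08 (adjusted p = 0.0923, edgeR quasi-likelihood test).

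Gm6377, a predicted protein-coding gene on the X chromosome (109196756 to 109200445, plus strand), had 0.367, 0.688, 0.632 and 1.02 CPM in the libraries labelled wild type and 4.37, 8.91, 18.9 and 10.1 in those labelled knock-out. The lowest of the second group was above the highest of the first, and the spread in the second was wide (0.676 ± 0.27 and 10.6 ± 6.1 CPM, SD, n = 4 each). The log2 fold change was 3.96 ± 0.47 (SE, adjusted p = 0.000685, edgeR quasi-likelihood test). Within the libraries labelled knock-out its order, KO 1, KO 2, KO 5 and KO 4, was that of the summed myeloid markers (282, 496, 653 and 874 CPM). Within those labelled wild type the orders differed. There Gm6377 was lowest in WT 1 (0.367 CPM), where the summed markers were highest (85.7 CPM). It was highest in WT 5 (1.02 CPM), where they were 64.1 CPM. With the myeloid marker level as a covariate the log2 fold change was 0.36 (adjusted p = 0.999), a fit that cannot separate the markers from the label. The part of these markers in the result was not tested. None of the 4 genes measured within 500 kb passed the test, and the nearest, Sh3bgrl, had a log2 fold change of -0.01 ± 0.04.

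Gm19705 was the only lncRNA called. It lies on chromosome 1 (136683396 to 136690805, plus strand) and shared no window with another gene. CPM was 0.734, 0.280, 0.607 and 0.705 in the libraries labelled wild type and 3.18, 2.27, 1.47 and 2.12 in those labelled knock-out, again without overlap. The log2 fold change was 1.95 ± 0.33 (SE, adjusted p = 0.00431, edgeR quasi-likelihood test). In contrast to Gm6377, it was highest in KO 1 and lowest in KO 4 of the libraries labelled knock-out, the reverse of the myeloid markers. Of those labelled wild type it was highest in WT 1 (0.734 CPM), where the summed markers were also highest (85.7 CPM). With their level as a covariate the log2 fold change was 3.42 (adjusted p = 0.516). The nearest measured gene, Zfp281, a zinc finger transcription factor gene, lay 53005 bases away and had a log2 fold change of 0.04 ± 0.06. Among the 4 genes within 500 kb, Ddx59, an RNA helicase gene, fell by 0.67 (log2).

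Gm4951 was the only one of 9 interferon-inducible GTPase models that was called. These GTPases are induced by interferons and act against intracellular pathogens. CPM of Gm4951 was 0.906, 0.433, 0.481 and 0.783 in the libraries labelled wild type and 1.71, 2.32, 3.40 and 2.29 in those labelled knock-out. The log2 fold change was 1.89 ± 0.30 (SE, adjusted p = 0.00316, edgeR quasi-likelihood test), and with the myeloid level as a covariate it was -0.21 (adjusted p = 0.999). Its nearest measured neighbour, Gm4841, belongs to the same family, lies 19861 bases away and had a log2 fold change of -0.36 ± 0.25 (adjusted p = 0.446). Iigp1, another GTPase of this kind within 500 kb, had 33.5 CPM in the libraries labelled wild type, 35.1 in those labelled knock-out and a log2 fold change of 0.07 ± 0.15. F830016B08Rik, which lies between Gm4841 and Iigp1, had 1.07 and 1.77 CPM. Its log2 fold change was 0.73 ± 0.25 (adjusted p = 0.112, edgeR quasi-likelihood test). None of the 8 genes measured within 500 kb passed the test.

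The other 8 interferon-inducible GTPase models lay between -0.36 and 0.18 on the log2 scale and none passed the test, with Gm8989 below 0.05 before adjustment. Gm1966, of the very large inducible GTPases, was the most abundant at 159 CPM in the libraries labelled wild type and 170 in those labelled knock-out. Gm12250, known as Irgb10, had 48.9, 46.1, 55.7 and 61.8 CPM in the libraries labelled wild type and 52.6, 45.2, 53.4 and 58.7 in those labelled knock-out, so the groups overlapped throughout their range (log2 fold change -0.02 ± 0.10). Its RefSeq promoter, chr11:58183593-58183892 on the plus strand of GRCm38.p6, is shown because it holds 2 matches to TTTCNNTTTC, the core of an interferon-stimulated response element, in capitals.
Gm12250 promoter: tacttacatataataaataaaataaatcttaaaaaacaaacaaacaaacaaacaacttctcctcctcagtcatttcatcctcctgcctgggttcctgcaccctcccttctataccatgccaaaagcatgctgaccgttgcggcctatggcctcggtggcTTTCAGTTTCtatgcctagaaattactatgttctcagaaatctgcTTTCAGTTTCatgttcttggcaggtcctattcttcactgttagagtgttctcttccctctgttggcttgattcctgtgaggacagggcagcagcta
That motif, searched on both strands, was found in 9 of 82 member promoters (11.0%; 77 members had at least 1 promoter of 300 bases in RefSeq) and in 3.44% of 32851 mouse promoters. The 9 genes were Gm10560, Gm11127, Gm12185, Gm12216, Gm12250, Gm14085, Gm16675, Gm1966 and Gm7030. Of these, 3 were GTPase models and 0 were called. Gm7030 and Gm11127 share part of their transcript windows with each other (48.3% and 31.8%), so their matches may not be separate occurrences. The shares of promoters were not compared by a test. A match of letters is not a bound site.

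Gm21975 (Evi2), on chromosome 11 (79513385 to 79530609, minus strand), joins Evi2a and Evi2b, a pair of genes nested within an intron of Nf1. Its CPM was 185, 184, 183 and 186 in the libraries labelled wild type and 216, 211, 214 and 212 in those labelled knock-out, a small and uniform difference of 0.21 ± 0.03 (log2, SE; adjusted p = 0.00231, edgeR quasi-likelihood test). Its count nearly equalled that of Evi2b, 61533 against 58883 over the 8 libraries, and Evi2b had the same log2 fold change of 0.21 ± 0.03 (adjusted p = 0.00219). The readthrough model and Evi2b cannot be told apart in these counts. Evi2a had a log2 fold change of 0.18 ± 0.08 (adjusted p = 0.177), and Nf1, on the opposite strand, of -0.08 ± 0.06. None of the other 7 readthrough models passed the test.

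**Figure D2:**
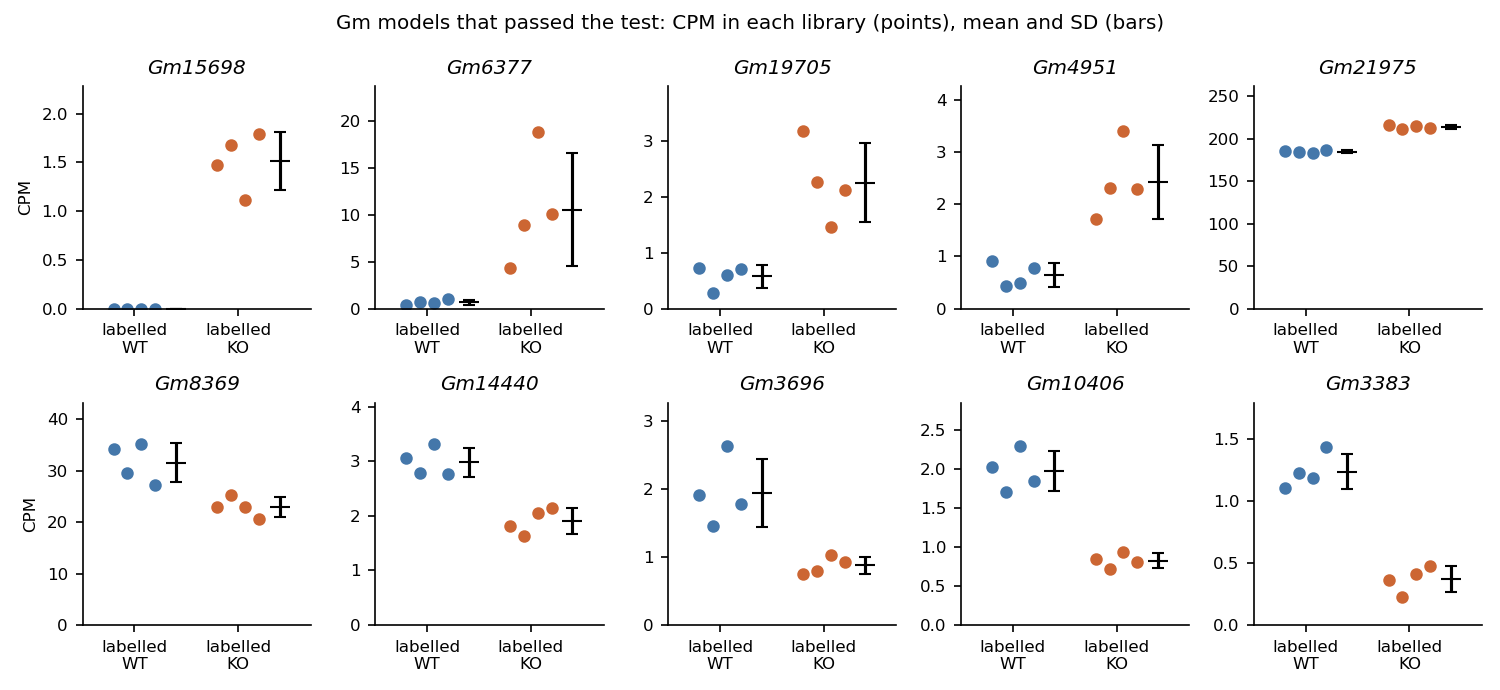
CPM in each library for the 10 Gm models that passed the test, with each panel on its own axis from 0, points for single libraries and bars for the mean and SD of 4 libraries. The groups do not overlap in any panel, and the libraries labelled knock-out spread most for Gm6377, from 4.37 to 18.9.

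Of the 5 members that fell, 3 lie in a duplicated stretch of proximal chromosome 14, on the minus strand. Gm3383 (5790561 to 5813737) had 1.102, 1.22, 1.19 and 1.44 CPM in the libraries labelled wild type and 0.362, 0.229, 0.411 and 0.479 in those labelled knock-out. Gm10406 (7006115 to 7028582) had 2.03, 1.71, 2.30 and 1.85 CPM and then 0.854, 0.713, 0.939 and 0.807. Gm3696 (7074404 to 7106256) had 1.91, 1.45, 2.63 and 1.77 CPM and then 0.750, 0.789, 1.03 and 0.933. In each, all 4 libraries labelled knock-out were below all 4 labelled wild type.

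The log2 fold changes were -1.73 ± 0.25 for Gm3383, -1.25 ± 0.18 for Gm10406 and -1.15 ± 0.23 for Gm3696 (SE; adjusted p = 0.00202, 0.00184 and 0.0104, edgeR quasi-likelihood test). LOC100861615, the other measured gene of that stretch, fell by 2.85 ± 0.33 (log2, SE; adjusted p = 0.000587). These genes share most of their sequence with many others: 93.8% of the windows of Gm3383 were also present in at least 1 of 99 other genes, 77.0% of those of Gm10406 in 102 and 78.4% of those of Gm3696 in 94. The counts of 9 to 104 per library for these 3 genes could have come from any copy with the same window, so a fall cannot be assigned to 1 copy. Leaving out KO 2 and KO 4, the calls for Gm3383 and Gm10406 held and Gm3696 had a log2 fold change of -1.21 with an adjusted p of 0.0569.

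The RefSeq promoters of Gm10406 and Gm3696 are shown because these neighbours moved alike, and the longest run of identical bases, 49, is in capitals. They lie at chr14:7027400-7027699 and chr14:7105454-7105753, on the minus strand of GRCm38.p6.
Gm10406 promoter: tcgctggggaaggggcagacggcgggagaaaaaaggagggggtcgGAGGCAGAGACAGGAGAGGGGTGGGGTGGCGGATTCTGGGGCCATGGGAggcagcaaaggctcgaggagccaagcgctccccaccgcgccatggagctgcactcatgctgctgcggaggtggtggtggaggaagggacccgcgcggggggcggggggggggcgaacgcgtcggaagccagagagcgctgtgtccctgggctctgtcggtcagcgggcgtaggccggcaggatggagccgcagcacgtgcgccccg
Gm3696 promoter: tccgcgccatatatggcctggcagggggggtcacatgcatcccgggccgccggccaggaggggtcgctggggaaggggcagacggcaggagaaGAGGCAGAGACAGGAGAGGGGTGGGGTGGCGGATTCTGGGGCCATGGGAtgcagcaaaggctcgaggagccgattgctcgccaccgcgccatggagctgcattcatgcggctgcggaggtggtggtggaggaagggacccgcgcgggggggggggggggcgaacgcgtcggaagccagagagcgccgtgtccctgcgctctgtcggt
Over the 237 bases that aligned, 227 (95.8%) were identical. Both hold GAGGAAG, the core of a motif bound by ETS factors such as PU.1, which on either strand was found in 13.6% of mouse promoters and in 11 of the 82 member promoters (13.4%). Because the 2 windows are near copies, they do not count as separate occurrences. The TATA box letters TATAAA, also searched on both strands, were in 13.6% of mouse promoters and 15 of 82 member promoters (18.3%), and in neither of these promoters.

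Gm14440 lies in a cluster of 10 Gm models on chromosome 2 (175185165 to 177957386), a region of duplicated zinc finger genes. It had 3.06, 2.78, 3.31 and 2.77 CPM in the libraries labelled wild type and 1.81, 1.63, 2.05 and 2.14 in those labelled knock-out. The log2 fold change was -0.64 ± 0.15 (SE, adjusted p = 0.0241, edgeR quasi-likelihood test). All of its windows (100%) were also in another gene, Gm14288 among them, which is in the same cluster and had a log2 fold change of 0.02 ± 0.17. The call was lost without WT 1, WT 4, KO 1 or KO 2 (adjusted p = 0.0629 to 0.0676), where the log2 fold change lay between -0.63 and -0.57. The other 9 members of the cluster lay between -0.16 and 0.14 and did not pass the test.

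Gm8369 lies on chromosome 19 (11488955 to 11512577, plus strand) among the Ms4a genes, which encode membrane proteins of lymphoid and myeloid cells. It was the most abundant of the members that fell, and shared no window with another gene. CPM was 34.2, 29.5, 35.1 and 27.2 in the libraries labelled wild type and 22.9, 25.2, 23.0 and 20.5 in those labelled knock-out (31.5 ± 3.8 and 22.9 ± 1.9, SD, n = 4 each). The log2 fold change was -0.46 ± 0.09 (SE, adjusted p = 0.0129, edgeR quasi-likelihood test). KO 4 and KO 5 carry another library code than the rest, and with that code in the model the log2 fold change was -0.39, with an adjusted p of 0.0996.

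The genes beside Gm8369 did not follow it. Of 13 measured within 500 kb, 5 were higher in the libraries labelled knock-out and none was lower. Over all genes 6.20% were higher and 3.84% lower. Ms4a7 rose by 3.49 ± 0.49 (log2, SE), Ms4a8a by 1.46 ± 0.36, Ms4a6c by 0.91 ± 0.14, Ms4a6d by 0.88 ± 0.20 and Stx3, a syntaxin gene, by 2.38 ± 0.36. Ms4a4b and Ms4a6b, which were abundant in these T cell libraries (734 and 531 CPM in those labelled wild type), had log2 fold changes of -0.02 ± 0.06 and -0.08 ± 0.05. The nearest, Ms4a6c, lies 1773 bases away on the same strand as Gm8369.

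**Figure D3:**
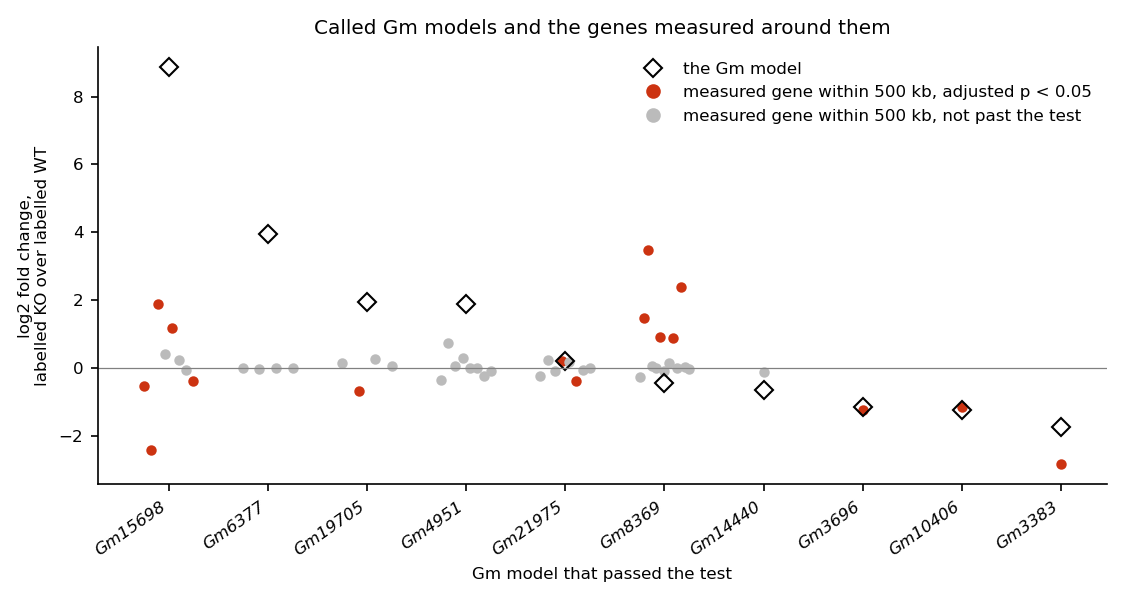
For each of the 10 called Gm models (open diamonds), the log2 fold changes of the genes measured within 500 kb are plotted in their order along the chromosome, red where the adjusted p was below 0.05 and grey otherwise. Around Gm15698 and Gm8369 several genes changed, 5 in each case, while around Gm6377 and Gm4951 none passed the test.

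A neighbour called in the same direction lay next to 3 of the 10 called members on chromosome 14, where the distances were 45822 bases between Gm10406 and Gm3696 and 446010 bases from Gm3383 to LOC100861615. The last was the longest distance among the called members. The shortest was that of Gm21975, which overlaps both Nf1, not called, and Evi2b, called in the same direction.

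For 3 members, CPM did not overlap between the groups but the test was not passed. Gm20300, an lncRNA that overlaps Hint3, had 4.43 to 4.89 CPM in the libraries labelled wild type and 3.40 to 4.14 in those labelled knock-out (log2 fold change -0.25 ± 0.11, adjusted p = 0.226, edgeR quasi-likelihood test). Gm15421, a copy of the ribosomal protein gene Rpl22l1 inside Orc5, had 40.1, 41.7, 41.9 and 42.5 CPM and then 47.8, 45.9, 44.1 and 46.8 (0.15 ± 0.04, adjusted p = 0.0656). Its parent Rpl22l1 had a log2 fold change of 0.09 ± 0.04. Gm13498, a copy of the chaperone gene Hsp90ab1, had 8.62, 10.4, 9.74 and 9.89 CPM and then 11.4, 11.2, 13.1 and 11.5 (0.29 ± 0.09, adjusted p = 0.0702). Gm13498 is 89.3% identical to the Hsp90ab1 coding sequence over 2161 aligned bases. Its count was 0.242% of that of Hsp90ab1, whose log2 fold change was 0.07 ± 0.06.

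Among all members, the 4 highest levels per kilobase of the deposited gene length were those of processed pseudogenes of abundant housekeeping genes, and none passed the test between the groups. Gm1821 (Ubb-ps), a ubiquitin pseudogene, had 995 ± 41 CPM per kb in the libraries labelled wild type and 1049 ± 61 in those labelled knock-out (SD, n = 4 each). Gm15772 had 415 ± 4.3 and 406 ± 19, Gm6548, a copy of the elongation factor gene Eef1a1, 236 ± 3.7 and 246 ± 7.6, and Gm6682, a copy of the tubulin gene Tuba1c, 83.5 ± 4.0 and 85.6 ± 10. The ranges of these 4 pseudogenes over the 8 libraries did not overlap with each other. Between the libraries labelled wild type and those labelled knock-out, the CPM of each of the 4 did overlap. The log2 fold changes were 0.08 ± 0.05, -0.03 ± 0.04, 0.06 ± 0.04 and 0.04 ± 0.08, with adjusted p from 0.385 to 0.855 (edgeR quasi-likelihood test).

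These high levels can be set beside the counts of the parent genes. Gm15772 had 77248 counts over the 8 libraries and Rpl26 77216, with log2 fold changes of -0.03 ± 0.04 for both. Gm1821 had 443894 counts, 90.1% of the 492592 of Ubb, and Gm12338, all of whose windows lie in Cox7c, had 10838 counts, 89.2% of those of Cox7c. Gm12070 was at 88.3 CPM and Gapdh at 12.5 CPM, so the copy had 704% of the count of its parent. By contrast, Gm6548 shared 4.15% of its windows with any other gene and had 492 CPM. Gapdh is among the most abundant messenger RNAs of most cells. No source used here gives how reads that fit more than 1 gene were counted, and what share of a pseudogene's count came from its parent was not tested.

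**Figure D4:**
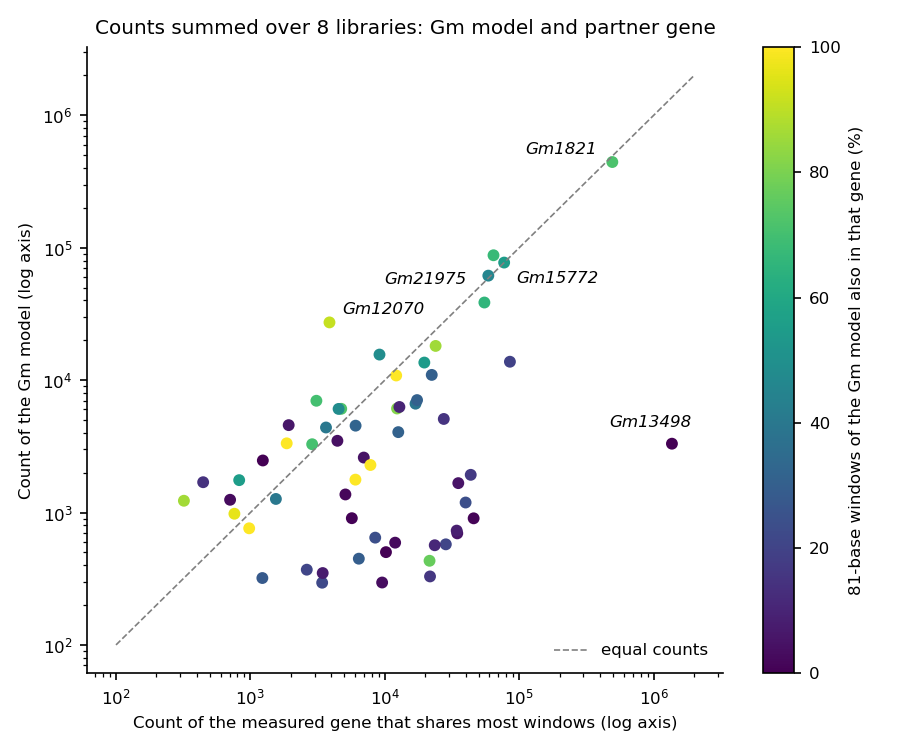
Summed counts over 8 libraries of each Gm model (vertical, log axis) and of the measured gene that shares most of its 81-base windows (horizontal, log axis), coloured by the percent of windows shared, with a dashed line for equal counts. Gm1821, Gm15772 and Gm21975 lie next to the line, Gm12070 above it and Gm13498 far below it.

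Leaving out the protocadherin locus, 19 members overlapped another measured gene on the same strand (27 pairs) and had a median of 78.5% of the other gene's count (1.59% to 11145%). On the opposite strand the median was 8.63% over 24 members and 27 pairs (0.234% to 890%). Readthrough models are among the same-strand members, and they hold sequence of the genes they join. Gm21975, for example, had 104.5% of the count of Evi2b. The same-strand median was not taken without them, so these medians do not show an effect of strand alone. The difference between the strands was not tested. The protocadherin models Gm37013 and Gm38666 had identical counts in all 8 libraries, 15124 in sum. They belong to a locus whose variable first exons are spliced to shared constant exons, and they overlap the measured protocadherin gamma genes. The 25 rows of these gamma genes and the 3 Gm models had 15124 to 31177 counts, with 15125 for Pcdhga1. The models cannot be told apart from the gamma genes in these counts, which give no separate level for protocadherin alpha. None of the 3 protocadherin models passed the test (log2 fold change -0.22 ± 0.15 each).

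Some Gm models with a known role in immune cells, in an immune gene family or beside an immune gene did not pass the test. Gm14005 (Morrbid), an lncRNA known to control the lifespan of myeloid cells, had 14.98, 14.2, 16.3 and 13.9 CPM in the libraries labelled wild type and 14.5, 14.2, 12.1 and 14.8 in those labelled knock-out (log2 fold change -0.09 ± 0.08). The 3 MHC class I-like models Gm8909, Gm7030 and Gm11127 had log2 fold changes of -0.08, -0.06 and -0.09. Gm10560, an lncRNA that shares windows with Tnfrsf18, the gene of the T cell co-receptor GITR, had 2.02% of its count and log2 fold changes of -0.41 ± 0.23, against -0.39 ± 0.12 for Tnfrsf18 (adjusted p = 0.0701).

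As a share of all counts in a library, Gm models made up 0.483, 0.479, 0.481 and 0.490% in the libraries labelled wild type and 0.495, 0.483, 0.493 and 0.497% in those labelled knock-out. The means were 0.483 ± 0.0049% and 0.492 ± 0.0064% (SD, n = 4 each), and the ranges overlapped. A two-sided exact permutation test over the 70 assignments of libraries gave p = 0.0857 (0.171 after adjustment over the 4 shares tested), where the smallest p it can give is 0.0286. The share of pseudogenes was 0.280% and 0.289% (exact p = 0.0857), that of lncRNAs 0.0669% and 0.0645% (exact p = 0.171) and that of protein-coding models 0.133% and 0.135% (exact p = 0.457).

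The genes most like the 3 members of largest change were found by Pearson's r of log2(CPM + 0.05) over the 8 libraries, which fall into the 2 labels, so that any gene that differs between the labels scores high. For Gm15698 they were Arhgap27os3 (r = 0.998), Mxra7 (0.995) and Hsd17b7 (0.995). For Gm6377 they were Sesn2 (0.994), the kinase gene Btk (0.991) and the junction gene F11r (0.991). For Gm19705 they were Armc5 (0.992), Ccdc102a (0.971) and Treml2 (0.970). Their own log2 fold changes ran from 0.22 ± 0.05 for Armc5 to 4.26 ± 0.26 for Mxra7.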

How the data were processed

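Poly(A) RNA was read as single 81-base reads from libraries made with a stranded TruSeq kit, per the labels' protocols, and aligned with STAR to mm10, per the submitters' processing notes. The counter, its annotation, its strand setting and its handling of reads that fit several genes were not given in any source used here. The deposited table holds raw counts, 1 row per gene, beside its Entrez number, symbol, full name and length. All 11354 genes had a fourth-highest CPM of at least 0.987, so low genes had been left out before deposit.

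Counts of all genes were fitted with edgeR 4.0.16 (R 4.3.3; TMM, group alone, quasi-likelihood test), with Benjamini-Hochberg adjustment over all 11354 genes and a call at an adjusted p below 0.05. The SE of a log2 fold change was taken as its size over the root of the F statistic. Library totals were 35198192 to 40310721 counts. That each library is a separate mouse is not stated, so p-values reflect only how much these libraries vary.

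Named were all members whose CPM did not overlap, the called members, as they were fewer than the 12 largest changes the rule allowed, the 4 highest per kb, called members nearest to and farthest from a measured gene, and 3 most alike genes for each of the 3 largest changes. Family members and partner genes named beside them were chosen after their values were seen. The members and lists were chosen with earlier results of these data known. Alternatives were DESeq2 1.42.0, limma-voom 3.58.1, other scaling and filters, host number as a block, library code, the myeloid marker level as a covariate, and libraries left out. Windows and alignments (Biopython 1.88) used GENCODE vM21 transcripts, and promoters and gene types are RefSeq's (GRCm38.p6).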

Additional observations from a re-analysis of the deposited data

Results flagged for a closer look

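Gm13498, the Hsp90ab1 pseudogene, had 13.1 CPM in KO 4, apart from the other 3 libraries labelled knock-out, the next of which had 11.5 CPM. The gap took 0.847 of the group's whole range. Of 41 groups of 4 libraries checked this was the only 1 with such a value, where chance, at about 1 in 20, gives about 2. KO 4 was also the library with the highest summed myeloid markers (874 CPM) and the lowest total count (35198192), and the part of either in the value was not tested.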

How the results depend on the processing

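DESeq2, limma-voom, other scalings and filters changed no count of called members by over 1.5 times; a minimum mean of 1 CPM left 129 members, with 4 called higher and 4 lower. With the myeloid marker level as a covariate edgeR called 0 members higher and 0 lower (4 of 11354 genes in all), and the members' median log2 fold change was -0.0798. The marker level did not overlap between the labels (0.388 to 1.22 and 3.09 to 4.67, mean log2 CPM), so that fit cannot separate it from the label. Its log2 fold changes were -0.214 for Gm4951, -0.148 for Gm1821, 0.141 for Gm15772, 0.36 for Gm6377 and -0.31 for Gm8369. They were 0.22 for Gm21975, 9.25 for Gm15698 (a fitted value, with no count in the libraries labelled wild type) and 3.42 for Gm19705. Those of Gm10406, Gm3383, Gm3696 and Gm14440 were -1.21, -2.16, -1.32 and -0.91. These values do not show which changes depended on the myeloid markers. With KO 2 and KO 4 left out, 16 members were higher and 16 lower without overlap, 3 were called lower and Gm15772 was at 0.00117. Leaving out 1 library at a time gave 5 to 6 members called higher, 4 to 6 lower, 7 to 13 higher and 8 to 13 lower without overlap, and a median of -0.0267 to 0.0150. Over these, Gm6682 ranged from -0.0180 (without KO 5) to 0.115. Gm15421 passed with DESeq2 (adjusted p = 0.0282), limma-voom (0.0271) and without KO 4 (0.0457), and Gm13498 with DESeq2 (0.0380). Host numbers gave no clear pairing of the libraries. The deviations of same-numbered libraries had correlations of -0.060, 0.182, -0.138 and 0.256 for hosts 1, 2, 4 and 5. That of WT 5 with KO 5 was the highest of all pairs, but not every library correlated best with its own number. With 4 libraries per group these correlations cannot tell whether same-numbered libraries shared a host or a batch. With the host number as a replicate block, 5 members were called higher and 4 lower, with a median log2 fold change of -0.0102, and Gm14440 was lost (0.0516). The causes were not tested. About 1 CPM per library limits what can be seen for the low members.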
